A study of Homo sapiens with 4 samples.

Results

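The transcripts of the mitochondrial genome were examined in U2OS cells, an established human osteosarcoma line, after knockdown of PURB, whose protein binds single-stranded DNA and RNA. They were taken as every gene symbol that starts with MT-, which gave 37 of the 39519 named genes: 13 mRNAs, 2 rRNAs and 22 tRNAs. The sh-PURB group (n = 2 libraries) carried an inducible short hairpin RNA against PURB and received doxycycline at 5 µg/ml for 72 h. The sh-NC group (n = 2) was the control and received DMSO. Total RNA was depleted of ribosomal RNA and sequenced, with levels given as TPM, the share of a library that a gene holds after correction for its length. The labels do not say whether the library numbers mark hairpins, clones or separate cultures, so the p-values hold only the spread among these 4 libraries, and that spread may be technical. Doxycycline, which is known to inhibit protein synthesis on mitochondrial ribosomes, was present in both sh-PURB libraries and in neither sh-NC library. Effects of the drug and of the knockdown cannot be told apart.

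The mitochondrial genome is a small circle whose strands are called heavy and light, and both are copied from end to end into long precursors by a dedicated RNA polymerase, POLRMT. Most mRNAs and rRNAs in these precursors are flanked by tRNAs, and cleavage at the tRNA ends releases the separate RNAs. The mRNAs encode core membrane subunits of the respiratory chain and of the ATP synthase, and the rRNAs and tRNAs serve their translation inside the organelle. Transcription from the heavy strand gives the genes annotated on the plus strand of the reference, 12 mRNAs, both rRNAs and 14 tRNAs. Transcription from the light strand gives MT-ND6 and 8 tRNAs, annotated on the minus strand. Because both precursors span the circle, every gene has antisense RNA opposite to it. How strand was handled in counting is likewise not given in the sources used here. Reads from a gene and from the opposite precursor therefore cannot be told apart.

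PURB itself measured 2.46 and 2.69 TPM after knockdown (sh-PURB), against 5.29 and 6.55 TPM in the sh-NC libraries. The sh-PURB mean was 43.5% of the control mean. The log2(TPM + 1) difference was -0.95 (SE 0.17), with a limma adjusted p of 0.102 over all genes tested and an exact two-sided permutation p of 0.33, the smallest that 2 libraries against 2 allow. Of the osteoblast lineage markers, SPARC was at 220 to 262 TPM, COL1A1 at 9.53 to 39.7 TPM and RUNX2 at 1.92 to 3.92 TPM, while SP7, ALPL, BGLAP and COL1A2 reached at most 0.509 TPM. Of markers of other cell types, EPCAM was at 1.79 to 2.44 TPM and PTPRC at 0.651 to 1.63 TPM, and PECAM1, GFAP, ALB and MYH6 reached at most 0.382 TPM. A group of 5 abundant structured RNAs (RMRP, RPPH1, RN7SK, RN7SL1 and RN7SL2) held 64.2% to 65.8% of the total in sh-PURB and 60.1% to 62.8% in sh-NC, and their part in the differences given here was tested only by leaving them out.

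Genes with at least 1 TPM in at least 2 libraries were tested, and 34 of the 37 members passed. No member was called by limma at an adjusted p under 0.05, against 0.287% of all 14269 genes tested (12 higher and 29 lower, or 26 and 35 when the structured RNAs were left out). Of the 34, 4 tRNAs passed through 1 group while listed at 0 in the other, so their difference was fixed by the filter. Among the remaining 30, 6 were higher and 3 were lower in sh-PURB by unadjusted p under 0.05. By the same limit 5.77% of all genes tested were higher and 9.53% lower. MT-TY, counted among the 6, was at 0 in sh-NC replicate 1, as were MT-TM, MT-TI and MT-TT. The sh-NC libraries alone would not have passed these tRNAs, so the 30 are not wholly free of the filter. The smallest adjusted p among members was 0.0544, for the tRNA gene MT-TF. The groups did not overlap for 18 members, with sh-PURB above for 14 and below for 4. Over all genes tested, sh-PURB lay above without overlap in 18.6% and below in 29.3%. The 18 include the 4 tRNAs listed at 0 in 1 group, 3 of them above and 1 below. MT-TY and MT-TM are also among those above.

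All members together made up 0.697% and 0.779% of the named TPM in the sh-PURB libraries, against 0.554% and 0.747% in the sh-NC libraries. The ranges overlapped, and sh-NC replicate 1 was the low library. In bulk RNA, fewer cells with a transcript and less of it in each cell cannot be told apart, nor can the number of mitochondrial genomes and the RNA made from each. The 13 mRNAs summed to 6246 and 6773 TPM in sh-PURB, against 5024 and 6608 TPM in sh-NC, a ratio of means of 1.12. The mean log2 difference of this sum was 0.17, and it turned to -0.023 without sh-NC replicate 1. As a share of protein-coding TPM they were 2.52% and 2.70% in sh-PURB, against 1.99% and 2.51% in sh-NC. Replicate 1 lay below replicate 2 in both groups for 12 of the 13 mRNAs, and all 13 were lowest in sh-NC replicate 1.

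Of the 13 mRNAs, 12 had a log2 difference above 0, where 41.6% of all genes tested did. Without sh-NC replicate 1 this held for 8 of the 13. The median of the mRNAs was 0.31, where the median of all genes tested was -0.06. Without the structured RNAs these medians were 0.47 and 0.07, so the scaling moved both by a similar amount. The median of the mRNAs was 0.06 without sh-NC replicate 1 and 0.66 without sh-NC replicate 2, so its size rested on which control library was kept. Both sh-PURB libraries exceeded both controls for 5 mRNAs (MT-ATP6, MT-ATP8, MT-ND2, MT-ND4L and MT-CO3), and for no mRNA was the reverse order seen. This count became 13 on leaving out sh-NC replicate 2, 10 on leaving out sh-PURB replicate 1, and 10 when the structured RNAs were left out. Over all genes tested the same order was then commoner too, in 4627, 4733 and 4419 of the 14269 genes, against 2648 with all libraries as deposited. Without sh-NC replicate 1 the mRNA count was 5, and without sh-PURB replicate 2 it was 6, beside 3858 and 4081 of all genes. Leaving out a library can only keep or raise such a count.

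**Figure D1:**
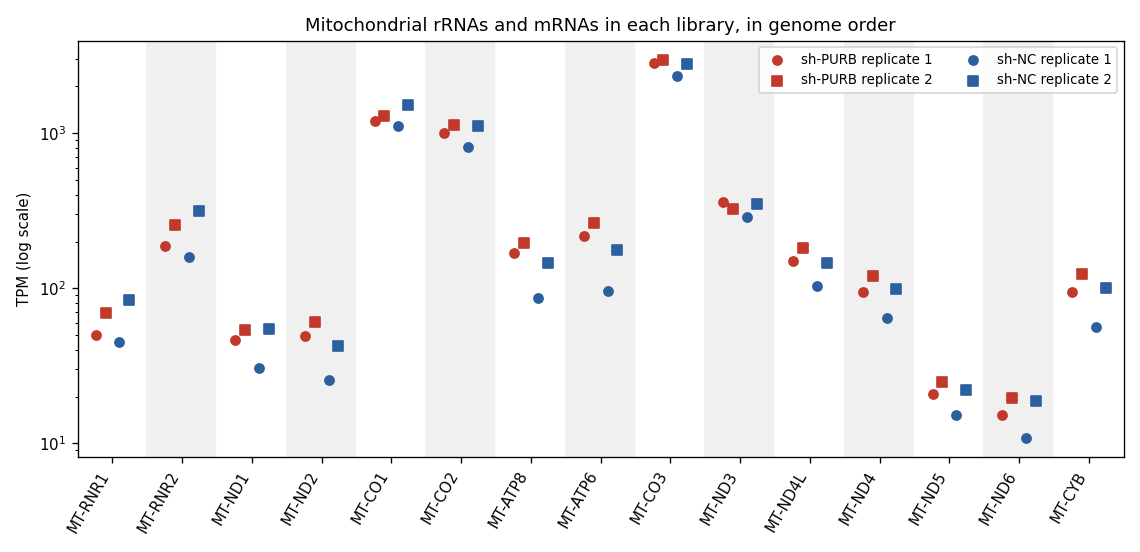
TPM (log axis) of the 2 mitochondrial rRNAs and 13 mRNAs in genome order, with sh-PURB libraries in red and sh-NC libraries in blue and 1 point for each library. MT-CO3 is the highest at 2324 to 2983 TPM and MT-ND6 the lowest at 10.7 to 19.6 TPM, and sh-NC replicate 1 is the lowest point for every mRNA.

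The cytochrome c oxidase mRNAs were the most abundant. MT-CO3, which encodes a core membrane subunit of that complex, was at 2842 and 2983 TPM in sh-PURB, against 2324 and 2810 TPM in sh-NC. It ranked 12 and 13 among all named genes in the sh-PURB libraries, and 22 and 20 in the sh-NC libraries. The groups did not overlap, but the lower sh-PURB library was close to the higher control, and the log2 difference was 0.19 (limma SE 0.12, adjusted p = 0.512). Quantile normalization gave 0.66 with a limma adjusted p of 0.0183, and leaving out sh-NC replicate 1 gave 0.051. MT-CO1, whose protein holds the site where oxygen is reduced, was at 1193 and 1298 TPM in sh-PURB, against 1109 and 1527 TPM in sh-NC. MT-CO2, whose protein takes electrons from cytochrome c, was at 996 and 1127 TPM in sh-PURB, against 818 and 1115 TPM in sh-NC. Both overlapped between groups, and MT-CO1 was the single mRNA with a log2 difference below 0 (-0.06, SE 0.17), a sign that turned to 0.017 with median-ratio rescaling.

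MT-ATP6 and MT-ATP8 encode the mitochondrial subunits of the ATP synthase and lie on a shared transcript with overlapping reading frames. MT-ATP6 was at 217 and 264 TPM in sh-PURB, against 96.5 and 177 TPM in sh-NC. Its log2 difference of 0.87 (limma SE 0.30, adjusted p = 0.282) was the highest of the mRNAs. MT-ATP8 was at 170 and 195 TPM in sh-PURB, against 85.9 and 146 TPM in sh-NC, with a log2 difference of 0.70 (SE 0.26). The groups did not overlap for either, and neither passed the threshold. Without sh-NC replicate 1 the differences of MT-ATP6 and MT-ATP8 were 0.43 and 0.32, and without sh-NC replicate 2 they were 1.30 and 1.07. The frames share 46 bases (chrM:8527-8572, plus strand, GRCh38), shown here because reads from this stretch fit both genes, so the pair are not independent measurements. Capitals mark the start codon of MT-ATP6 and the stop codon of MT-ATP8, which GENCODE gives in the plus-strand sense.
MT-ATP8 and MT-ATP6 overlap: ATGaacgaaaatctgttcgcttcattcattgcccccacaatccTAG

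The ratio of MT-ATP6 to MT-ATP8 TPM was 1.28 and 1.35 in sh-PURB, against 1.12 and 1.21 in sh-NC. Another overlapping pair, MT-ND4L and MT-ND4, shares 7 bases (chrM:10760-10766), and its MT-ND4 to MT-ND4L ratio was 0.631 and 0.665 in sh-PURB, against 0.616 and 0.677 in sh-NC. The first ratio did not overlap between groups and was higher in sh-PURB, while the second overlapped.

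The 7 ND mRNAs encode membrane subunits of complex I, the NADH dehydrogenase that starts the chain. All had a log2 difference above 0, where 41.6% of all genes tested did. The differences ran from 0.11 for MT-ND3 to 0.71 for MT-ND2. MT-ND2 was at 49.4 and 60.5 TPM in sh-PURB, against 25.6 and 42.5 TPM in sh-NC, without overlap (limma SE 0.26, adjusted p = 0.311), and its difference was 0.35 without sh-NC replicate 1 and 1.06 without sh-NC replicate 2. MT-ND4L was at 150 and 181 TPM in sh-PURB, against 104 and 146 TPM in sh-NC, so that the inner 2 libraries nearly met. The other 5 overlapped between groups. MT-ND4 was at 94.4 and 120 TPM in sh-PURB, against 63.9 and 98.8 TPM in sh-NC. MT-ND3 was the most abundant of the 7, at 359 and 322 TPM in sh-PURB, against 286 and 349 TPM in sh-NC. MT-ND1 was at 46.0 and 53.5 TPM in sh-PURB, against 30.7 and 54.2 TPM in sh-NC, and its sign turned to -0.13 without sh-NC replicate 1. MT-ND5, the longest of the 13 mRNAs at 1812 bases, was at 20.9 and 25.0 TPM in sh-PURB, against 15.2 and 21.9 TPM in sh-NC. MT-CYB, which encodes cytochrome b of complex III, was at 93.9 and 123 TPM in sh-PURB, against 55.8 and 100 TPM in sh-NC, with a log2 difference of 0.51 (SE 0.31) and overlapping groups. Without sh-NC replicate 1 the difference of MT-CYB was 0.095, and without sh-NC replicate 2 it was 0.93.

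MT-ND6, the single mRNA from the light strand, was at 15.2 and 19.6 TPM in sh-PURB, against 10.7 and 18.6 TPM in sh-NC. Its share of the mitochondrial mRNA was 0.243% and 0.289% in sh-PURB, against 0.214% and 0.282% in sh-NC. Light against heavy strand mRNA was thus not separated between the groups: the log2 difference of their ratio was 0.11, which turned to -0.087 without sh-NC replicate 1 and to -0.015 without sh-PURB replicate 2.

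Shares within the mitochondrial mRNAs do not depend on how the rest of a library is scaled, so they were compared next, as a description chosen after the values were seen. MT-CO1 held 19.1% and 19.2% in sh-PURB, against 22.1% and 23.1% in sh-NC, and was the single mRNA whose share was lower in both sh-PURB libraries. The shares of 6 mRNAs (MT-ND2, MT-ATP8, MT-ATP6, MT-ND4L, MT-ND4 and MT-ND5) were higher in both sh-PURB libraries, and the remaining 6 overlapped. These counts have no counterpart over all genes tested. For MT-ND4 and MT-ND5 the inner libraries nearly met. MT-ND4 held 1.511% in sh-PURB replicate 1, against 1.495% in sh-NC replicate 2, and MT-ND5 held 0.335% against 0.332% in the same libraries. MT-ATP6 and MT-ATP8 together held 6.20% and 6.78% in sh-PURB, against 3.63% and 4.89% in sh-NC. The 3 CO mRNAs together held 80.5% and 79.9% in sh-PURB, against 84.6% and 82.5% in sh-NC. Since shares sum to a fixed total, these are not separate results.

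**Figure D2:**
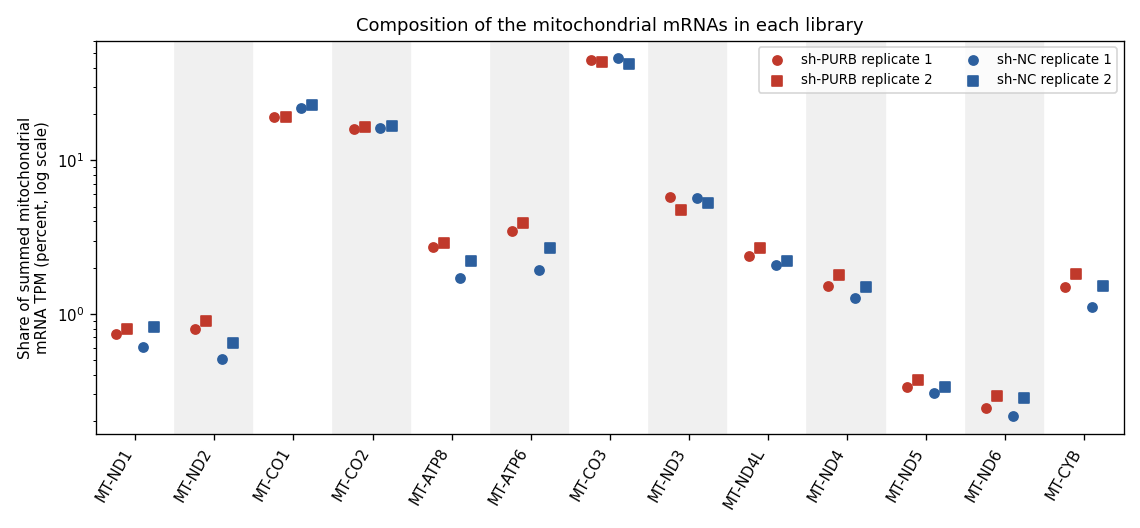
Share of each of the 13 mRNAs in the summed mitochondrial mRNA TPM of its library (percent, log axis), with sh-PURB in red and sh-NC in blue and 1 point for each library. The MT-CO1 points of sh-PURB (19.1% and 19.2%) lie under those of sh-NC (22.1% and 23.1%), and the MT-ATP6 points of sh-PURB (3.48% and 3.90%) lie above those of sh-NC (1.92% and 2.68%).

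The rRNAs MT-RNR1 and MT-RNR2, which form the small and large subunits of the mitochondrial ribosome, were measured in libraries from which ribosomal RNA had been depleted, so their level also holds how well depletion worked. MT-RNR1 was at 50.2 and 69.0 TPM in sh-PURB, against 44.7 and 84.2 TPM in sh-NC. MT-RNR2 was at 187 and 255 TPM in sh-PURB, against 159 and 316 TPM in sh-NC. The sh-PURB libraries lay between the controls for both. The MT-RNR2 to MT-RNR1 ratio was 3.73 and 3.70 in sh-PURB, against 3.56 and 3.75 in sh-NC, so both rRNAs went up and down together across libraries. The ratio of summed rRNA to summed mRNA TPM was 0.0380 and 0.0479 in sh-PURB, against 0.0406 and 0.0605 in sh-NC, with overlap.

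The tRNAs had the widest differences and the weakest measurements. They are 59 to 75 bases long, shorter than a usual sequencing fragment, and TPM of so short an RNA can be estimated poorly. Values of the 6 tRNAs of 69 bases were whole multiples, within 0.01 of a whole number, of a single step in each library. The step was 1.34 and 1.81 TPM in sh-PURB, against 2.53 and 2.06 TPM in sh-NC, and the largest multiple was 6 and 12 in sh-PURB, against 4 and 9 in sh-NC. A difference of a few TPM between these tRNAs is therefore a difference of a few steps. Of the 22 tRNAs, 10 were above 0 in all 4 libraries and 19 passed the filter. MT-TW, MT-TD and MT-TG did not pass, each being above 0 in 1 sh-PURB library only.

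The summed tRNA level was 286 and 393 TPM in sh-PURB, against 153 and 225 TPM in sh-NC, a ratio of means of 1.80 with no overlap. MT-TC and MT-TP, for cysteine and proline, held 68.0% and 65.7% of it in sh-PURB, against 52.4% and 59.7% in sh-NC. The light strand tRNAs summed to 243 and 341 TPM in sh-PURB, against 120 and 166 TPM in sh-NC, a ratio of 2.04. Without MT-TC and MT-TP they summed to 48.5 and 83.2 TPM in sh-PURB, against 39.7 and 32.3 TPM in sh-NC. Leaving these out was a choice made after the values were seen. That sum still holds MT-TA, at 4.03 and 14.5 TPM in sh-PURB and listed at 0 in each sh-NC library. It also holds MT-TY, at 10.5 and 15.1 TPM in sh-PURB, against 0 and 1.64 TPM in sh-NC. Whether the groups stay apart without MT-TA and MT-TY was not tested. The heavy strand tRNAs overlapped, at 42.9 and 51.6 TPM in sh-PURB, against 33.2 and 58.2 TPM in sh-NC.

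The tRNAs with signal in both groups numbered 15 among those that passed. Of the 7 from the light strand, 5 were higher in both sh-PURB libraries and 0 were lower. Of the 8 from the heavy strand, 1 (MT-TM) was higher and 3 were lower. Of all genes tested, 18.6% lay above and 29.3% below, and the difference between strands was not tested. MT-TY, counted among the 5, and MT-TM were at 0 in sh-NC replicate 1. The sh-NC libraries alone would not have passed either tRNA, so these counts are not free of the filter. The sequences of 6 tRNAs are given, the 2 most abundant light strand tRNAs with MT-TY, and the 3 heavy strand tRNAs that were lower, since the description of the tRNA values turns on them. They are the GENCODE transcripts on GRCh38, 5′ to 3′ in the sense of the RNA, and capitals mark the anticodon, found as the middle triplet of a 7-base loop closed by the best-paired 5-base stem. The first 3 are light strand tRNAs, at chrM:5761-5826, chrM:15956-16023 and chrM:5826-5891 on the minus strand, and the last 3 are heavy strand tRNAs, at chrM:577-647, chrM:1602-1670 and chrM:8295-8364 on the plus strand.
MT-TC: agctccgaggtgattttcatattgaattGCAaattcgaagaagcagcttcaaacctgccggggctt
MT-TP: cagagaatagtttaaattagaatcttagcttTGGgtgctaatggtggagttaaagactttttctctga
MT-TY: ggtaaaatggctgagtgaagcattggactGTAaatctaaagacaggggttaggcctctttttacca
MT-TF: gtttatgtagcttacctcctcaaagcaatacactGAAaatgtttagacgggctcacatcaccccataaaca
MT-TV: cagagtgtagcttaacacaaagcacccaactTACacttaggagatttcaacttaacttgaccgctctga
MT-TK: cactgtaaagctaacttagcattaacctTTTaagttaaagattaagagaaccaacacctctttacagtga

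MT-TC, the cysteine tRNA, was at 100 and 115 TPM in sh-PURB, against 31.5 and 49.1 TPM in sh-NC. This was 2.67 times the control mean, with a log2 difference of 1.43 (limma SE 0.23, adjusted p = 0.085). MT-TP, the proline tRNA, was at 94.0 and 143 TPM in sh-PURB, against 48.7 and 84.9 TPM in sh-NC (log2 difference 0.84, SE 0.33). Without sh-NC replicate 1 the difference of MT-TP was 0.45, and without sh-PURB replicate 2 it was 0.54. MT-TY, for tyrosine, was at 10.5 and 15.1 TPM in sh-PURB, against 0 and 1.64 TPM in sh-NC (limma adjusted p = 0.0869). MT-TC and MT-TY are neighbours whose annotated ends meet at base 5826 of the chromosome, and their groups stood apart in every pair of libraries.

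The other light strand tRNAs stayed under MT-TC and MT-TP in every library. MT-TQ, for glutamine, was at 4.35 and 4.21 TPM in sh-PURB, against 2.75 and 2.31 TPM in sh-NC. MT-TS1, for serine, was at 8.05 and 21.7 TPM in sh-PURB, against 7.59 and 4.12 TPM in sh-NC, so 1 sh-PURB library nearly met a control. MT-TE, for glutamate, and MT-TN, for asparagine, overlapped between groups, and MT-TN was the single light strand tRNA with a log2 difference below 0 (-0.29, SE 0.20). MT-TA, for alanine, was at 4.03 and 14.5 TPM in sh-PURB and at 0 in each sh-NC library.

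Among heavy strand tRNAs, MT-TF, for phenylalanine, was at 2.52 and 2.02 TPM in sh-PURB, against 7.67 and 8.69 TPM in sh-NC. It was 3.60-fold lower, with a log2 difference of -1.49 (limma SE 0.17, adjusted p = 0.0544). MT-TL2, also 71 bases long, was at the same 2.52 TPM as MT-TF in sh-PURB replicate 1, and at 2.56 TPM in sh-NC replicate 1. Steps were not determined for tRNAs of this length, so the fold of MT-TF may also rest on a few steps. MT-TV, for valine, which is also a structural part of the human mitochondrial ribosome, was at 5.37 and 3.62 TPM in sh-PURB, against 10.1 and 18.5 TPM in sh-NC, which is 3.19-fold lower (log2 difference -1.44, SE 0.32). MT-TF and MT-TV are the tRNAs on the 5′ sides of MT-RNR1 and MT-RNR2, which they adjoin with no gap. MT-TK, for lysine, was at 2.60 and 1.73 TPM in sh-PURB, against 4.94 and 4.01 TPM in sh-NC. The groups stood apart for these 3, though none passed the threshold. In sh-PURB replicate 1 the 5.37 TPM of MT-TV was 4 of the steps of 1.34 TPM.

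The remaining heavy strand tRNAs went both ways. MT-TM, for methionine, was at 9.68 and 5.44 TPM in sh-PURB, against 0 and 3.77 TPM in sh-NC. MT-TI, MT-TL1, MT-TL2 and MT-TT overlapped between groups. MT-TR and MT-TH, for arginine and histidine, lay between 1.58 and 2.68 TPM in sh-PURB and were listed at 0 in each sh-NC library, while MT-TS2, a serine tRNA, was listed at 0 in both sh-PURB libraries and at 2.09 and 1.52 TPM in sh-NC. These 3 and MT-TA entered the test through the group in which they were above 0, so their groups had to differ, and no fold is given for them.

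**Figure D3:**
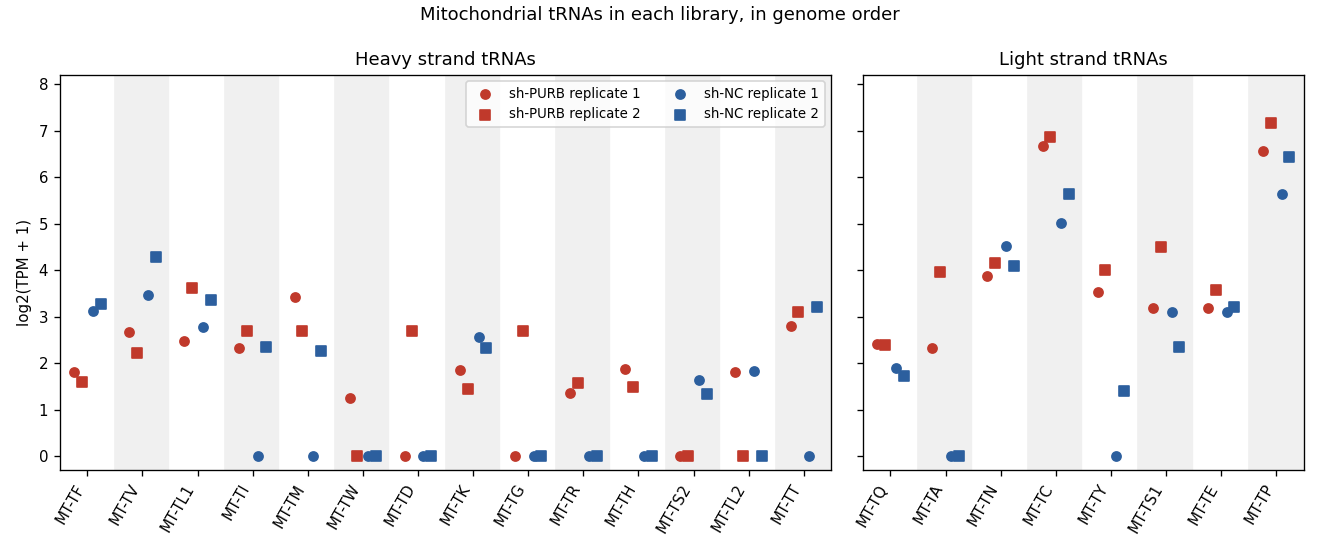
log2(TPM + 1) of the 22 mitochondrial tRNAs in genome order, with the 14 heavy strand tRNAs on the left and the 8 light strand tRNAs on the right, sh-PURB in red, sh-NC in blue and 1 point for each library. MT-TC and MT-TP stand above all other tRNAs, the red points of MT-TC lie above the blue ones, and the red points of MT-TF and MT-TV lie under the blue ones.

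**Figure D4:**
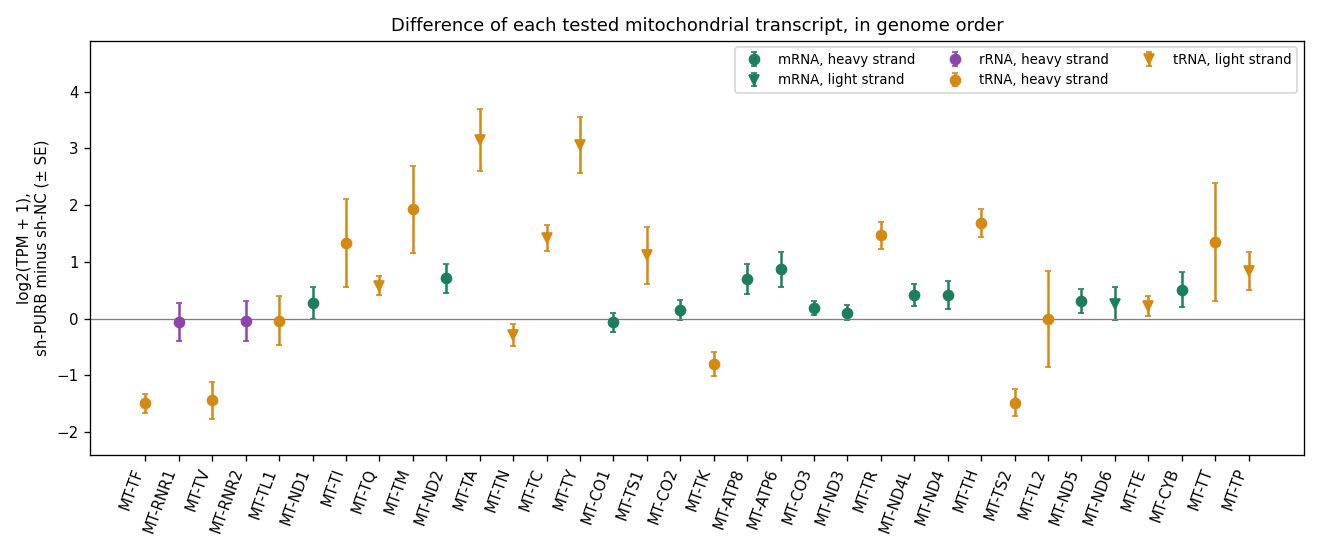
Difference in mean log2(TPM + 1), sh-PURB minus sh-NC, of the 34 members tested, in genome order, with bars for the limma standard error and colours for the RNA class. The mRNAs lie between -0.06 and 0.87, the rRNAs near 0 and the tRNAs with signal in both groups between -1.49 and 3.06. MT-TA, MT-TR, MT-TH and MT-TS2 are also drawn, but they were listed at 0 in 1 group and their difference was fixed by the filter.

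Nuclear sequences that were copied from the mitochondrial genome can draw reads from it. Of 415 symbols that name such copies, 4 passed the filter. MTATP6P1 (chr1:633696-634376, GRCh38), a 681-base copy of MT-ATP6, differs from it at 10 positions, an identity of 98.5%. It was at 18.4 and 23.8 TPM in sh-PURB, against 11.2 and 16.1 TPM in sh-NC, and so had the same order of libraries as MT-ATP6 at a far lower level. MTND2P28, at 98.4% identity with MT-ND2, was at 1.72 and 1.49 TPM in sh-PURB, against 0.912 and 0.706 TPM in sh-NC. MTND3P22 and MTCO3P39, at 75.7% and 79.3% identity with their mitochondrial genes, were at 0.821 to 3.52 TPM and overlapped between groups. MTRNR2L2 was above 0 in sh-NC replicate 2 only, at 2.55 TPM. The split of reads between MT-ATP6 or MT-ND2 and their closest copies is therefore uncertain.

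The nuclear genes that act on mitochondrial RNA were read from lists chosen by function, and none of their members was called over all genes by limma. The counts in these lists stand against 41.6% of all genes tested with a log2 difference above 0, and, by unadjusted p under 0.05, 5.77% higher and 9.53% lower. In the list for transcription and the nucleoid, 10 of 18 had a log2 difference above 0 (median 0.01), and by unadjusted p under 0.05 there was 1 higher and 0 lower, a share close to that of all genes. SSBP1, the single-stranded DNA binding protein of mitochondria, was at 69.6 and 56.2 TPM in sh-PURB, against 41.7 and 46.5 TPM in sh-NC (limma adjusted p = 0.217). The polymerase POLRMT was at 8.76 and 6.90 TPM in sh-PURB, against 6.38 and 5.26 TPM in sh-NC, and the DNA helicase TWNK at 4.48 and 3.27 TPM in sh-PURB, against 2.48 and 2.56 TPM in sh-NC. MTERF2, a member of the mitochondrial termination factor family, was at 1.74 and 2.34 TPM in sh-PURB, against 2.96 and 3.62 TPM in sh-NC. TFAM, which packages mitochondrial DNA and starts transcription, was named after its value was seen. It was at 37.1 and 28.7 TPM in sh-PURB, against 36.0 and 31.7 TPM in sh-NC, with overlap.

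In the list for RNA processing and stability, 18 of 21 had a log2 difference above 0 (median 0.21), and by unadjusted p under 0.05 there were 4 higher and 0 lower. In 13 of the 21 sh-PURB lay above sh-NC without overlap and in 2 below, where 18.6% and 29.3% of all genes did. Other lists had this order too, with 21 of 37 above and 0 below for nuclear complex I. For modification 9 of 25 lay above and 1 below, and for transcription and the nucleoid 4 of 18 above and 3 below. The 4 genes of this list given next are those counted as higher, named because their unadjusted p was the smallest. REXO2, an oligoribonuclease, was at 59.8 and 45.8 TPM in sh-PURB, against 37.3 and 26.5 TPM in sh-NC. SUPV3L1, the helicase of the mitochondrial RNA degradosome, was at 17.4 and 13.8 TPM in sh-PURB, against 9.31 and 10.9 TPM in sh-NC. SLIRP, which with LRPPRC stabilises mitochondrial mRNAs, was at 156 and 108 TPM in sh-PURB, against 88.5 and 91.2 TPM in sh-NC. HSD17B10 is a subunit of mitochondrial RNase P, which cuts at the 5′ ends of tRNAs, and was at 32.2 and 29.7 TPM in sh-PURB, against 24.6 and 20.9 TPM in sh-NC. The lowest and highest adjusted p (limma) of these 4 genes were 0.223 and 0.301. The other RNase P subunits TRMT10C and PRORP, named after their values were seen, had ratios of 1.00 and 1.06, and ELAC2, which cuts at the 3′ ends of tRNAs, had a ratio of 1.32 (limma adjusted p = 0.405).

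In the list for tRNA and rRNA modification, 21 of 25 had a log2 difference above 0 (median 0.10), and by unadjusted p under 0.05 there was 1 higher and 0 lower, so the higher share was not above that of all genes. That member was PUS1, a pseudouridine synthase that acts on mitochondrial tRNAs, at 9.23 and 6.92 TPM in sh-PURB, against 4.15 and 4.72 TPM in sh-NC. Its ratio of means was 1.82, with a limma adjusted p of 0.179. RPUSD4, NSUN2 and TRUB2 had ratios of 1.32, 1.25 and 1.27.

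Respiratory complexes join mitochondrial and nuclear subunits, so the summed TPM of each genome's mRNAs was set side by side by complex. For complex I the mitochondrial sum was 734 and 782 TPM in sh-PURB, against 535 and 732 TPM in sh-NC, while the nuclear sum was 1779 and 1634 TPM in sh-PURB, against 1512 and 1477 TPM in sh-NC. The nuclear sums were higher in both sh-PURB libraries for each of the 4 complexes, with ratios of means from 1.09 to 1.14. Mitochondrial over nuclear TPM was 0.413 and 0.479 in sh-PURB, against 0.354 and 0.495 in sh-NC, for complex I. For cytochrome c oxidase it was 3.64 and 4.25 in sh-PURB, against 3.39 and 4.58 in sh-NC. For the ATP synthase it was 0.263 and 0.343 in sh-PURB, against 0.142 and 0.270 in sh-NC. The ratio overlapped between groups in all 4 complexes.

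**Figure D5:**
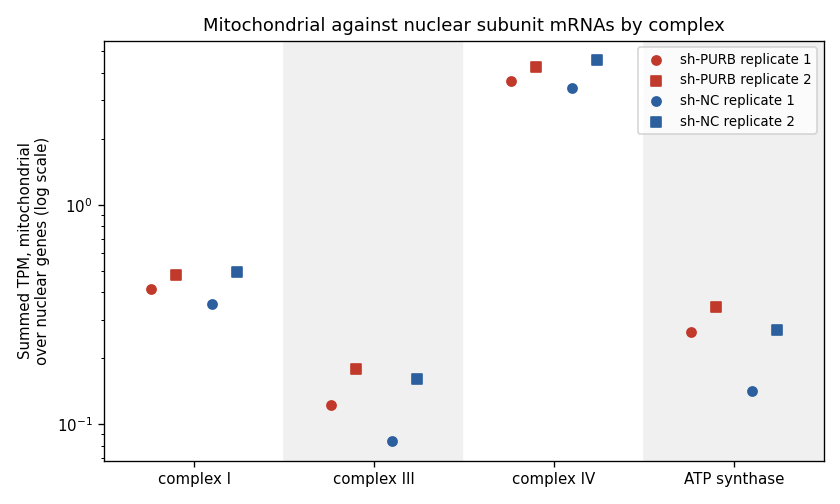
Summed TPM of the mitochondrial mRNAs over summed TPM of the nuclear genes of the same complex (log axis), with sh-PURB in red, sh-NC in blue and 1 point for each library. The spans of the red and blue points overlap in each complex, and the ratio for complex IV (3.39 to 4.58) is above that of the other complexes (0.0835 to 0.495).

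Nuclear subunits were close to uniform in direction, with 33 of 37 above 0 for complex I, 9 of 9 for complex III, 10 of 11 for complex IV and 14 of 16 for the ATP synthase, against 41.6% of all genes tested. Their medians were 0.22, 0.19, 0.15 and 0.14 on the log2 scale. At an unadjusted p under 0.05, 4, 3, 2 and 2 of them were higher and 0 lower, where 5.77% of all genes were higher and 9.53% lower. ATP5MC1, which encodes a form of the membrane ring subunit of the ATP synthase, was at 57.7 and 46.5 TPM in sh-PURB, against 32.4 and 30.2 TPM in sh-NC. Its limma adjusted p was 0.119 over all genes, and 0.0362 in a fit of only the protein-coding genes, where 3.41% of genes were called. NDUFAB1, the acyl carrier protein that is also part of complex I, had a ratio of 1.51, the Rieske protein gene UQCRFS1 1.35 and COX5B 1.20.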

How the data were processed

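RNA-seq was deposited for 2 sh-PURB and 2 sh-NC libraries, grouped by title. The authors deposited TPM by gene symbol, in a table of all samples that matched the 4 single tables with 0 differing values. Per the submitters' processing notes, bcl2fastq 2.19, kallisto 0.44.0, sleuth and DESeq2 were used with GRCh38 and GRCm38, with no role given. Annotation release, strand setting and transcript summing are not given in the sources used here. TPM keeps no read depth, so depth is unknown and no counting interval is given. Columns summed to 977570 to 981061. A row with a blank name (0.921% to 1.66%) was left out.

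The 14269 genes that reached TPM 1 in 2 or more libraries were compared as log2(TPM + 1) in limma 3.58.1 (R 4.3.3, intensity trend, 2 residual and 2.92 prior degrees of freedom) with Benjamini-Hochberg adjustment over all of them at 0.05. These differences understate changes of low genes. No p was computed for sums or over members. Coordinates, strands and sequences came from GENCODE v29 (GRCh38), which named 39416 genes' types. The fit was also run on simulated data with known changes, and the outcome of that run is not given here.

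All members were named, with PURB, up to 4 genes of smallest unadjusted p from each list, and the 5 most abundant nuclear copies. Members and lists were chosen with earlier results of these data known. Alternatives were a filter at TPM 5 or none, pseudocounts of 0.5 and 0.1, median-ratio and quantile scaling, leaving out the 5 structured RNAs, protein-coding genes alone, a replicate block, limma without trend, and leaving out each library. Counts of separated groups and the light strand tRNA sum without MT-TC and MT-TP were added after seeing the data, as were TFAM, TRMT10C, PRORP and ELAC2.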

Additional observations from a re-analysis of the deposited data

How the results depend on the processing

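Of 447 settings over the 34 members tested, 417 kept direction and side of the threshold, but much of this was fixed in advance. A changed filter, the replicate block and limma without trend leave the difference of a gene as it was. Where no gene was called, no member could pass the threshold. The 4 tRNAs listed at 0 in 1 group could not change sign. The count of genes called, 41, became 0 with a pseudocount of 0.1, with no filter, without the limma trend and without any 1 library (0 to 0, at 1 residual degree of freedom), 121 with the filter at TPM 5, 80 with median-ratio rescaling, 118 with quantile normalization and 407 among protein-coding genes. With the replicate number as a replicate block it was 118. The numbers may not pair the libraries: the deviations of same-numbered libraries correlated at 0.19 over genes, and 2 pairs do not settle it. Called members numbered 1 with the block (MT-TY, 3.06) and 1 with quantile normalization (MT-CO3, 0.66), against 0 otherwise. Median-ratio rescaling, quantile normalization and leaving out the structured RNAs moved the median of all genes to 0.01, 0.01 and 0.07.

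The mRNAs with both sh-PURB libraries above both controls numbered 9 with median-ratio rescaling, 10 without the structured RNAs and 5 to 13 when each library was left out. Over all genes tested the shares in this order were 23.9%, 31% and 27% to 33.2%, against 18.6% as deposited. For tRNAs, 9 to 14 of the 22 were seen when each library was left out, beside the same 27% to 33.2% of all genes. These counts always include MT-TA, MT-TR and MT-TH, listed at 0 in both sh-NC libraries. The highest also includes MT-TD and MT-TG, which did not pass the filter. The median of the mRNAs ran from 0.058 to 0.66 when each library was left out. Rescaling by median ratio, quantiles, leaving out the structured RNAs and protein-coding genes gave the transcription and nucleoid list 0.079, 0.062, 0.15 and 0.057 and the modification list 0.18, 0.15, 0.25 and 0.16. The processing list gave 0.26 with the filter at TPM 5, 0.29 with median-ratio rescaling, 0.36 without the structured RNAs and 0.26 among protein-coding genes. Complex I gave 0.30, 0.37 and 0.28 under the last 3 of these. Complex IV gave 0.23 with median-ratio rescaling. Without the structured RNAs, complexes III and IV and the ATP synthase gave 0.34, 0.30 and 0.29. When each library was left out, the ranges were 0.020 to 0.088 (transcription), 0.16 to 0.27 (processing), 0.072 to 0.16 (modification), 0.14 to 0.21 (complex I), 0.099 to 0.26 (complex III), 0.085 to 0.19 (complex IV) and 0.053 to 0.24 (ATP synthase).

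Signs turned for 12 genes, all uncalled. With median-ratio rescaling, MT-CO1, MT-RNR1, MT-RNR2, MT-TL1 and MT-TL2 gave 0.017, 0.019, 0.044, 0.036 and 0.026. With quantile normalization, MT-CO1, MT-RNR2, MT-TL1, MT-TL2 and MTND3P22 gave 0.21, 0.049, 0.044, 0.062 and 0.034. Without the structured RNAs, MT-CO1, MT-RNR1, MT-RNR2, MT-TL1, MT-TL2 and MTND3P22 gave 0.083, 0.085, 0.11, 0.095, 0.047 and 0.053. When each library was left out, ranges were -0.13 to 0.68 (MT-ND1), -0.29 to 0.17 (MT-CO1), -0.074 to 0.37 (MT-CO2), -0.039 to 0.25 (MT-ND3), -0.10 to 0.64 (MT-ND6), -0.51 to 0.39 (MT-RNR1), -0.53 to 0.46 (MT-RNR2), -0.60 to 0.53 (MT-TL1), -0.92 to 0.91 (MT-TL2), -0.25 to 2.95 (MT-TT), -0.28 to 0.14 (MTND3P22) and -0.34 to 0.60 (MTCO3P39). The cause was not tested. MT-ATP6 stayed between 0.43 and 1.30, MT-TC between 1.11 and 1.74 and MT-TF between -1.81 and -1.38 in every setting. PURB passed among protein-coding genes (-1.07), as did ATP5MC1 (0.77).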
